A study of Drosophila melanogaster with 4 samples.

Results

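The interval from 11.75 to 11.90 Mb of chromosome arm 3R (FlyBase release 5), 150 kb long, was examined for monomethylation of lysine 4 of histone H3 (H3K4me1). The chromatin came from nuclei of third-instar larvae of Drosophila melanogaster, strain Oregon-R, genotype wild type. The interval was chosen by coordinates, as the interval of the GATA factor genes srp, GATAe and pnr. No measured value entered this rule, but earlier results of these data were known when it was proposed. Its members were all regions named enriched that overlapped the interval by at least 1 base: 18 of 7177 in replicate 1, 20 of 9903 in replicate 2 and 24 of 9501 in a combined list deposited for the whole series. Chromatin immunoprecipitation and sequencing (ChIP-seq) gave 2 ChIP samples from larval tissue, made with 1 lot of the antibody ab8895, and 2 inputs of sheared chromatin, 1 for each ChIP sample. No other strain, genotype, stage or treatment was included. The inputs had no values of their own here and read depth is unknown for every list, and in chromatin of mixed larval cells a mark in few cells and a weak mark in many cannot be told apart.

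H3K4me1 is placed by the COMPASS-like methyltransferase Trithorax-related in flies and is known from enhancers and from the flanks of active promoters. GATA factors are zinc-finger proteins that bind the sequence their name spells. In flies serpent (srp) is required for blood cells, fat body and endoderm, GATAe maintains midgut identity downstream of srp, and pannier (pnr) patterns the dorsal ectoderm and the notum and takes part in heart development. U-shaped (ush), a Friend-of-GATA protein, is a cofactor of Pannier and Serpent.

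The RefSeq gene table, which is of release 6 and was used for names and order alone, lists srp, GATAe and pnr in that order by rising coordinate, with no protein-coding gene between them. This order differs from the GATAe, srp, pnr order under which the interval was proposed. In the order of the table lncRNA:CR44133 and then lncRNA:CR42839 come between srp and GATAe, Hel89B comes before srp and Jhbp4 after pnr. Of the related genes, grn, another GATA factor, lies on 3R outside this neighbourhood, and GATAd and ush lie on 2L. Gene positions of release 5 were not used here, so no enriched region was assigned to a gene and the presence of the 3 genes in the interval rests on the choice of interval alone.

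Enriched regions covered less than was left free in replicate 1 and more in replicate 2 and the combined list. They spanned 60.8 kb (40.5%) of the interval in replicate 1 and 80.3 kb (53.5%) in replicate 2, with a mean of 47.0% ± 9.20 (SD, n = 2). The median 150 kb window of 3R was covered to 30.4% in replicate 1 and 35.2% in replicate 2. In the combined list 91.6 kb of the interval, or 61.1%, was covered, against a median window of 39.0%. The cluster was thus more covered than the median window in all 3 lists. With 2 samples of 1 group no test over samples was possible, so all values below are descriptions, and the labels do not say whether the replicates came from separate cultures.

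**Figure D1:**
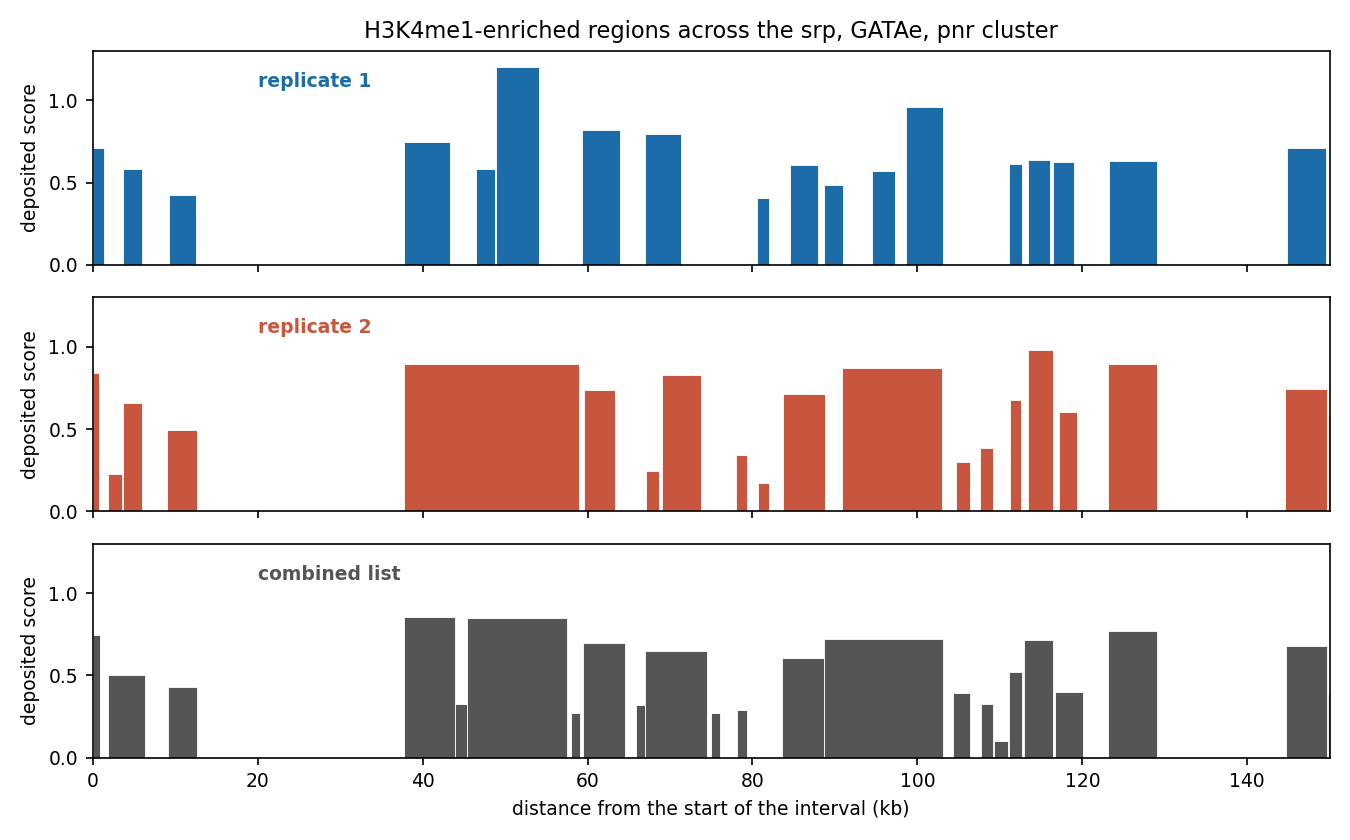
Enriched regions along the cluster in replicate 1, replicate 2 and the combined list; each bar spans 1 region, cut at the interval's limits, its height is the score deposited by the authors, and the x axis is the distance in kb from the start of the interval. All lists leave the same pair of long runs empty, and the 21.3 kb region of replicate 2 stands over 3 separate regions of replicate 1; the combined region at about 81 kb has a score too close to 0 to be seen.

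The marked sequence fell into 3 stretches separated by 2 long gaps that recurred in every list. The first gap was 3R:11762527-11787803 in replicate 1 (25277 bases) and 3R:11762601-11787750 in replicate 2 (25150 bases), and the combined list left 3R:11762664-11787746 free (25083 bases). The second was 3R:11879046-11894825 in replicate 1 (15780 bases) and 3R:11879014-11894632 in replicate 2 (15619 bases), and the combined list left 3R:11879065-11894639 free (15575 bases). The limits of these gaps lay between 32 and 193 bases apart in the replicates. Over the 588 limits of 294 gaps of at least 10 kb that paired one to one between the replicates on 3R, the median distance was 691.5 bases, and 27.0% were within 193 bases.

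Together these gaps held 46.0% of the free sequence of replicate 1 and 58.5% of that of replicate 2. They were long for the arm: 183 of 1687 gaps of 3R were longer than the first in replicate 1, and 155 of 2450 in replicate 2. The second was exceeded by 295 and 256 gaps. Yet the longest gap of a 150 kb window was usually longer than the 25.3 kb and 25.2 kb found here, with medians over windows of 42.9 kb in replicate 1 and 39.1 kb in replicate 2.

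**Figure D2:**
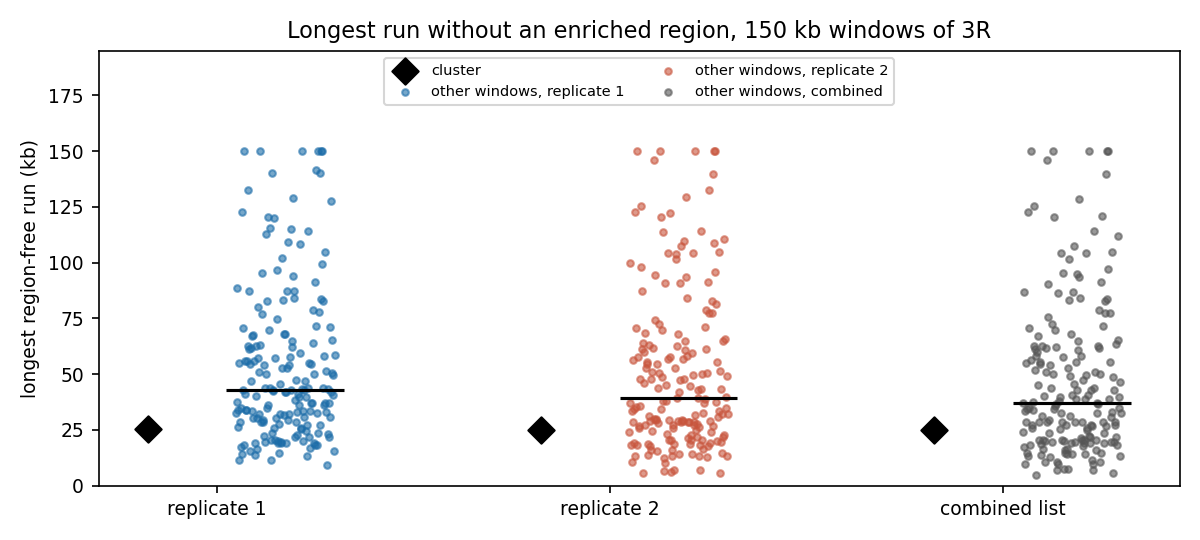
Longest run without an enriched region, in kb, in the cluster (diamonds) and in the other 184 windows of 150 kb of 3R (points; the horizontal line is the median over all 185 windows), for each list. The cluster lies at 25.3, 25.2 and 25.1 kb, below the medians of 42.9, 39.1 and 37.1 kb.

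The stretch between the gaps, 3R:11787751-11879045, was 91.3 kb long and held most of the members. Its limits were read from the lists themselves. Replicate 1 had 14 regions there and covered 53.6% of it, replicate 2 had 14 and covered 73.2%, and the combined list had 19 and covered 84.9%. Within it replicate 1 had 3 gaps of at least 5 kb, 3R:11804169-11809287 (5119 bases), 3R:11821366-11830527 (9162 bases) and 3R:11853117-11861130 (8014 bases). The longest gap there measured 4152 bases in replicate 2 and 2957 bases in the combined list, so that neither had one of 5 kb. When regions of 3R less than 10 kb apart were joined, a limit chosen after the gaps had been seen, this stretch was longer than all but 25 of 419 such blocks in replicate 1 and all but 42 of 372 in replicate 2. The median block measured 15.9 kb in replicate 1 and 18.5 kb in replicate 2.

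The low-coordinate part of this stretch held the widest member of replicate 2. This region, 3R:11787751-11809011, ran for 21.3 kb with a score of 0.897, at the 99.3rd percentile of widths in its list. Replicate 1 had 3 regions over the same sequence, which covered 61.4% of it: 3R:11787804-11793305 (score 0.744), 3R:11796441-11798731 (0.583) and 3R:11798918-11804168 (1.20). The last of these was the highest-scoring member of replicate 1, at the 94.8th percentile of its list. The combined list divided this sequence into 4 regions, among them its highest-scoring members of the cluster, 3R:11787747-11793925 (0.854) and 3R:11795402-11807555 (0.848, 12.2 kb wide). This sequence was thus marked in every list and unbroken in replicate 2. The combined list covered 97.7% of it, with breaks of only 53, 24 and 416 bases. Replicate 1 left 3135 and 186 bases free between its regions and had none in the rest of it after 11804168.

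A second wide region lay at 3R:11840860-11852983 in replicate 2 (12.1 kb, score 0.869). Replicate 1 covered 59.5% of it with 3 regions, the highest-scoring being 3R:11848659-11853116 (0.960). The combined list held its widest member of the cluster there, 3R:11838702-11853051 (14.4 kb, 0.719). Between the wide regions stood mid-sized ones, seen in all lists: 3R:11809288-11813935 in replicate 1 and 3R:11809582-11813327 in replicate 2 scored 0.818 and 0.738, and 3R:11833692-11838745 in replicate 2 (0.715) overlapped 3R:11834607-11837925 in replicate 1 (0.605). Also among the 5 widest combined members were 3R:11817013-11824471 (7.46 kb, score 0.651) and 3R:11873067-11879064 (6.00 kb, 0.768), which closes the stretch. Both overlapped regions of each replicate.

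Toward the high-coordinate end of the stretch, at 3R:11863418-11866460, replicate 2 had its highest score of the cluster, 0.979 (80.7th percentile of its list), where the matching region of replicate 1, 3R:11863388-11866090, scored 0.634 (42.2nd percentile). The highest-scoring members thus differed between the replicates. Outside the stretch, the low-coordinate side held 3 regions in replicate 1 and 4 in replicate 2, with scores of 0.425 to 0.712 and 0.225 to 0.838. The high-coordinate side held 3R:11894826-11899556 in replicate 1 (0.712) and 3R:11894633-11899629 in replicate 2 (0.743), with a further region of replicate 2 at the very limit. Just beyond the interval the next regions ended 3294 and 3403 bases before it in replicates 1 and 2, with scores of 0.937 and 0.888, and began 7554 and 4796 bases after it, with scores of 0.809 and 0.580.

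**Figure D3:**
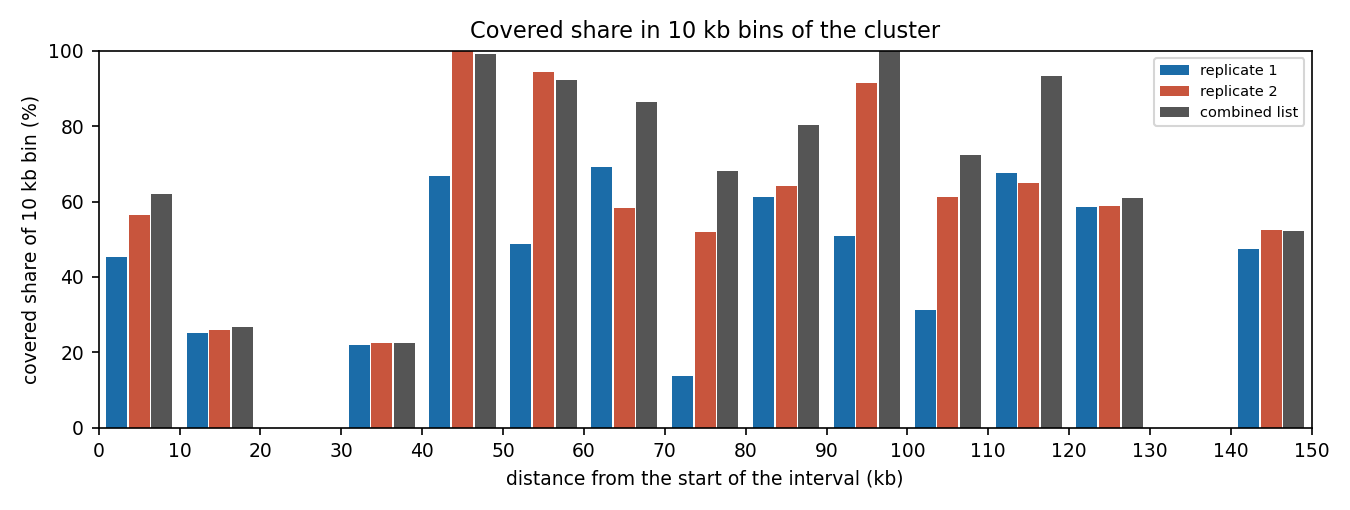
Share of each 10 kb bin of the cluster covered by enriched regions (%), against distance in kb from the start of the interval, with a bar for each replicate and for the combined list. The bins at 20 to 30 kb and 130 to 140 kb are empty in all lists, and the bin at 70 to 80 kb is covered to 13.7% in replicate 1 and 52.0% in replicate 2, with 68.2% in the combined list.

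In 10 kb bins, 2 of 15 were empty in each list, or 13.3%, against 42.4% of the bins of 3R in replicate 1 and 36.8% in replicate 2. Bins covered to at least 75% numbered 0 of 15 in replicate 1, where 14.8% of 3R bins were so covered, and 3 of 15 (20.0%) in replicate 2, against 19.2%. In the combined list 6 of 15 (40.0%) were so covered, against 25.3% of 3R bins. Coverage was nearly level between the replicates in some bins: the bin at 30 to 40 kb was covered to 22.0% in replicate 1 and 22.5% in replicate 2, and the bin at 120 to 130 kb to 58.5% and 59.0%. They were farthest apart at 50 to 60 kb (48.8% and 94.3%) and at 90 to 100 kb (50.9% and 91.4%), both inside the stretch.

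Replicate 1 was almost contained in replicate 2 here. Each of its 18 regions met one of replicate 2 by at least 1 base, where 93.3% of 3R regions did. The 95% Wilson interval was 82.4 to 100%, covering counting error only. Replicate 2 had 15 regions of 20 that met replicate 1 (75%, with limits of 53.1 and 88.8%), where 75.4% of 3R regions did. Both shares were near those of the whole arm. The region 3R:11838622-11840977 of replicate 1 counts as met, though only 10.3% of its bases lay in replicate 2. The replicates shared 55.2 kb, which was 64.4% of their union in the cluster and 65.4% over 3R. A further 25.1 kb was marked in replicate 2 alone and 5.52 kb in replicate 1 alone, so that the shared part was 90.9% for replicate 1 and 68.8% for replicate 2, against 84.5% and 74.2% over 3R.

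The 5 regions of replicate 2 without a partner were mostly narrow and low in score. They were 3R:11751888-11753597 (score 0.225), 3R:11827959-11829355 (0.344), 3R:11854714-11856369 (0.298), 3R:11857623-11859113 (0.387) and 3R:11899757-11902197 (0.584). Their median score was 0.344, against 0.738 for the 15 with a partner, and the same split over 3R gave 0.451 for 604 regions and 0.723 for 1850. Those starting at 11827959, 11854714 and 11857623 lay inside the longest gaps that replicate 1 had within the stretch, of 9162 and 8014 bases. Low scores also occurred with a partner, at 3R:11830650-11832010 (0.171) and 3R:11817059-11818651 (0.248) of replicate 2.

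Of the 24 combined members, 15 overlapped both replicates (62.5%, against 61.4% of combined regions on 3R), 6 overlapped replicate 2 alone (25%, against 24.3%), 0 overlapped replicate 1 alone (5.89% on 3R) and 3 overlapped neither (12.5%, against 8.33%). These shares were close to those of the arm, given the few members. The 3 seen in neither replicate were 3R:11815930-11816985 (score 0.320), 3R:11824954-11826089 (0.270) and 3R:11859237-11860969 (0.101). Since the combined list was made for the same ChIP samples, its overlap with the replicates is no independent support.

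High coverage went with modest scores in this cluster. The mean score, weighted by covered bases, was 0.718 for replicate 1 and 0.755 for replicate 2, with 0.630 for the combined list, below the medians of 0.846, 0.808 and 0.719 over windows that held a region. Among 185 windows the coverage of the cluster stood at percentile 68.4 for replicate 1, 80.3 for replicate 2 and 81.9 for the combined list. Its mean score stood at percentile 20.4, 35.8 and 26.9. Of 33 other windows covered at least as much in both replicates, 1 had a mean score as low or lower in both. These ranks carry no test. As a mean of the replicates, the coverage stood at percentile 70 with the higher-scoring 50% of each list and 28.4 with the highest-scoring 25%. The 21.3 kb region of replicate 2 fell just under that last limit, at the 74.9th percentile of scores, and was left out there.

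**Figure D4:**
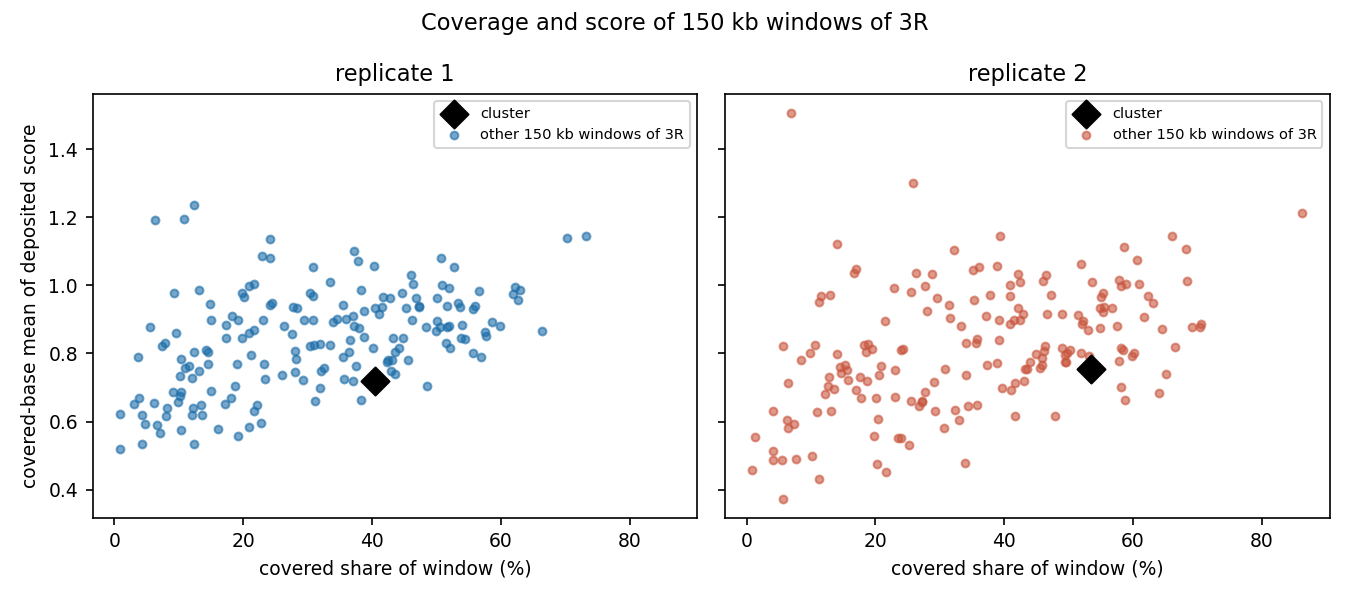
Covered share (%) and covered-base mean of the deposited score for 150 kb windows of 3R that hold a region, in replicate 1 (left) and replicate 2 (right); the diamond is the cluster and each point another window. The cluster lies to the right of the median window (40.5% against 30.4% and 53.5% against 35.2%) and below the median score (0.718 against 0.846 and 0.755 against 0.808).

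The coverage came from many regions rather than long ones in replicate 1. Its 18 regions were exceeded in 3 of 185 windows, where the median was 9, and its widest member, 3R:11873198-11879045 at the high-coordinate end of the stretch, measured 5848 bases. Each of the 58 other windows with at least as much coverage had a wider region, and 56 of them held one of at least 10 kb. Replicate 2, with 20 regions against a median of 14, held members of 21.3 and 12.1 kb, and 28 of the 36 windows with at least as much coverage had no wider one. Of the members, 2 of 18 in replicate 1 and 1 of 20 in replicate 2 were among the highest-scoring 25% of their lists. In the higher-scoring 50% there were 7 and 11. The 21.3 kb member of replicate 2 and its member 3R:11873118-11879013 fell just under the 25% limit, at the 74.9th and 74.8th percentiles of scores. Scores followed width among the members, with a Spearman rho of 0.71 over 18 regions in replicate 1 and 0.78 over 20 in replicate 2. This is a description over regions that share a library. No value over the whole arm is set beside it, so it is not shown to be particular to the cluster.

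Coverage of 150 kb windows rose from 300 kb before the cluster to 300 kb after it, but not beyond these windows. The window 300 kb before it was covered to 4.29% in replicate 1 and 5.44% in replicate 2, and the one directly before it to 37.0% and 38.9%. The window directly after it was covered to 44.6% and 66.5%, and the next to 70.3% and 68.2%. Farther out, 3R:12200001-12350000 was covered to only 31.1% in replicate 1 and 45.8% in replicate 2. On the low-coordinate side, 3R:11150001-11300000 was covered to 53.9% and 60.6%, and 3R:11300001-11450000 to 10.2% and 20.2%. The rise is therefore local and no gradient of the arm. Regions named depleted were rare in the lists, with 12 on 3R in replicate 2, 2 there in the combined list and 0 in replicate 1, and none of these lay in the cluster.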

How the data were processed

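H3K4me1 ChIP-seq was available as 3 deposited lists of regions, each with a start, an end and a score. The submitters' processing notes name Bowtie 0.12.7, and coordinates are on FlyBase r5, per the file headers. No source used here gives the region caller, its threshold or filters, or how the combined list was made. The score is the authors' value per region, above 0 in enriched and below 0 in depleted regions. Its scale is not stated, so scores were set side by side as deposited and otherwise compared within a list. Coverage was the union of enriched regions. The 185 windows of 150 kb were non-overlapping, in register with the cluster, and included it. A percentile counts windows below plus 50% of ties. The interval was proposed, and the measures were chosen, with earlier results of these data known. The named regions were to be the 5 widest and 3 highest-scoring combined members, gaps of at least 5 kb and regions of 1 replicate alone; others were named after their values were seen. No test was run. Alternatives were score limits, merging, interval and window limits, overlap rules and single lists. Interval arithmetic was tested on simulated data. Python 3.11.15, NumPy 2.4.6, pandas 2.3.3, SciPy 1.17.1 and Matplotlib 3.10.9 were used.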

Additional observations from a re-analysis of the deposited data

How the results depend on the processing

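Given here are values that moved by over 1 SD between replicates, region counts that moved by over 1.5 times and shares outside their Wilson interval. The shared part of the union, 64.4% in the main setting, had neither an SD nor such an interval. Each change in it is therefore given, also small ones. Leaving out a replicate leaves the other, so the coverage of 40.5% to 53.5%, its percentile of 68.4 to 80.3 and the score percentile of 20.4 to 35.8 show the spread and no stability. The combined list gave 61.1% coverage, a mean score of 0.630 and a longest gap of 25083 bases. With the higher-scoring 50% of each list the mean of the replicates was 31.8% coverage, 9 regions, a mean score of 0.855 and a longest gap of 36755.5 bases, and 38.5% of the union was shared. With the highest-scoring 25% it was 4.25% coverage (percentile 28.4), 1.5 regions, a mean score of 1.04 and a longest gap of 81167 bases, and 0% was shared. Fewer regions enter these by construction. At 25% replicate 1 kept 3R:11798918-11804168 and 3R:11848659-11853116, which lay 100% and 97.0% within regions of replicate 2. Those regions of replicate 2 fell below the limit, at the 74.9th and 72.8th percentiles of scores, so 0% shared does not mean unmarked in replicate 2. Merging regions under 500 bases apart gave 65.3% shared. An interval 25 kb shorter at each end gave percentiles of 83.6 for coverage and 39.9 for score, a mean score of 0.767, a longest gap of 12776.5 bases, since it cuts the first long gap and leaves out the second, and 59.5% shared. One 25 kb longer at each end gave a coverage percentile of 86.6 and 61.0% shared. With 50% of each region required, 57.9% of replicate regions were shared, against 86.8% with 1 base. Other window tilings kept the coverage percentile between 74.1 and 76.9. No paired analysis was possible because the inputs have no values here. Read depth is unknown, so low coverage in a list cannot be told apart from shallow sequencing.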

Other observations

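The combined region 3R:11830348-11832087, in the middle of the stretch between the long gaps, had a score of 2.92e-05, the lowest of all 9501 enriched regions of its list. Both replicates listed a region at the same place, 3R:11830528-11831955 with a score of 0.406 in replicate 1 and 3R:11830650-11832010 with a score of 0.171 in replicate 2. Both replicate scores were low in their own lists, at percentiles 6.94 and 2.92. The cause was not tested, as no source used here gives how the combined score was made.

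The marked block after the second long gap reached beyond the interval, and its length differed between the lists. With regions less than 10 kb apart joined, the block beginning after it ran for 37.8 kb in replicate 1 (3R:11894826-11932673), for 222.5 kb in replicate 2 (3R:11894633-12117180) and for 224.0 kb in the combined list (3R:11894640-12118624). In replicate 2 it was exceeded by 2 of 372 blocks of 3R, in replicate 1 by 117 of 419. The block before the first long gap was nearly the same length in both, 45.3 kb in replicate 1 and 45.5 kb in replicate 2.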
